A study of Mus musculus with 21 samples.

Results

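The circadian clock genes examined here are Per1, Per2, Per3, Nr1d1, Nr1d2, Dbp, Ciart, Arntl, Npas2 and Bhlhe41, followed across cultures and tumours of a pair of mouse mammary carcinoma lines. Of these 10 genes, 9 were measured on a probe set assigned to a single gene symbol, among 22180 genes in all. Each of the 9 had 1 such probe set. Per2 was represented only by a probe set shared with another symbol, so it has no value here. The set was chosen by the measured signal of Per1, which in mixed tumours lay below that of both kinds of single-line tumour. The values of the mixed tumours are therefore given as a description, with no test, and the tests concern cultures, single-line tumours and the differences between them. The single-line tumour arrays also entered that choice of Per1, so its tests that use these tumours are not independent of the choice.

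The study followed Py117 and Py8119, lines derived as clones from mammary carcinomas of transgenic MMTV-PyMT mice, in which a mammary tumour virus promoter drives the polyoma middle T oncogene. In the study's design Py117 tumours are sensitive to radiation and Py8119 tumours resistant, and tumours of both together place the lines in a shared microenvironment. The 5 groups were measured on 21 Affymetrix whole-transcript arrays. They were Py117 cells in culture (3 arrays), Py8119 cells in culture (3), Py117 tumours (5), mixed tumours grown from an equal mixture of both lines (5) and Py8119 tumours (5). Cultures were kept in Ham's F12K medium with 5% fetal bovine serum. Tumours grew from 1000000 cells implanted in mammary fat pad 4 in a mixture of saline and Matrigel. Cells and tumours were untreated, and tumours were taken on the day on which radiation would usually be given. The strain and age of the hosts, and the hour at which cultures or tumours were collected, are not given in the sources used here. Sampling hour and group therefore cannot be told apart for genes that cycle over the day. The replicates carry the label of biological replicates.

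All values are log2 signals, so a difference of 1 is a doubling. Signals of different probe sets were not set against each other. Array medians over all probe sets ran from 5.24 to 5.53, and arrays of a group correlated at r between 0.969 and 0.994 over genes. The 95th percentile of the mean signals of 1394 olfactory and vomeronasal receptor genes, 5.31, served as a background level. Epithelial markers averaged 8.74 to 8.79 in Py117 cultures and 5.77 to 6.02 in Py8119 cultures. In Py8119 cultures 7 of these 12 markers had a mean below background. The tumours were not purified, so they hold host cells: 8 endothelial markers averaged 8.43 to 9.15 in Py117 tumours, 7.41 to 7.59 in mixed tumours and 6.90 to 7.46 in Py8119 tumours, against 5.15 to 5.48 in the cultures. Adipocyte markers (9 of 10 measured) averaged 8.82, 6.42, 6.48, 7.91 and 8.87 in the 5 Py117 tumours, 5.82 to 6.26 in mixed tumours and 5.58 to 6.20 in Py8119 tumours. In such whole-tumour RNA, fewer cells of a type and less RNA per cell cannot be told apart.

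The mammalian clock is a feedback loop of transcription. Arntl (also called Bmal1) pairs with Clock or Npas2, and the pair binds E-boxes and drives the Per, Cry, Nr1d, Dbp, Ciart and Bhlhe41 genes, whose products shut the pair down again or pass the rhythm on. Nr1d1 and Nr1d2 (Rev-erb alpha and beta) repress Arntl and Npas2 through elements shared with the activating ROR receptors, and Dbp drives D-box genes such as Per3. Per1 also responds directly to glucocorticoids and to cAMP signalling, which makes it an acutely inducible gene as well as a clock component.

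These elements can be seen in the promoter windows of several of the genes. The sequences are the 250 bases before the RefSeq start on the mouse build GRCm38.p6, on the strand of the gene. Windows existed for the 9 measured genes, 11 windows in all. The 4 shown were picked because they hold an element searched for. They belong to Per1, which changed most of the 9 genes between Py117 cultures and tumours, and to 3 of the 5 genes that moved the other way in that comparison. Capitals mark the E-box CACGTG, the related box CACGTT (read on the opposite strand as AACGTG) and the D-box (TTATGTAA, TTATGCAA or TTACGTAA), each searched on both strands.
Per1: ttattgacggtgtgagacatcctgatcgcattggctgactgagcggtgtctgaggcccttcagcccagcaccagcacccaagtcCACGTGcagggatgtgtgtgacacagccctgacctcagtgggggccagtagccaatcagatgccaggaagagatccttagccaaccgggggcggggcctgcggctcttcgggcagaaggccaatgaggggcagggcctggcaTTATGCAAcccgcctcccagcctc
Ciart: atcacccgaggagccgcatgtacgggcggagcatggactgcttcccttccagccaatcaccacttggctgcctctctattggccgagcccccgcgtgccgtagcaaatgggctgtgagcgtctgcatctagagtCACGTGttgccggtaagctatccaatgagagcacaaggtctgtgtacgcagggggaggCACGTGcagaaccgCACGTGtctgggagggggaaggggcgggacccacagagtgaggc
Per3: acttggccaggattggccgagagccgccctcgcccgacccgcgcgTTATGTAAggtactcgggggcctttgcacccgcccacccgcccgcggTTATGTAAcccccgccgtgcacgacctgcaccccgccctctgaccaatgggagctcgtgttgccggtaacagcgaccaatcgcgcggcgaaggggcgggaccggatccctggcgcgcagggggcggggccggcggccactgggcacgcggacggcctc
Nr1d1: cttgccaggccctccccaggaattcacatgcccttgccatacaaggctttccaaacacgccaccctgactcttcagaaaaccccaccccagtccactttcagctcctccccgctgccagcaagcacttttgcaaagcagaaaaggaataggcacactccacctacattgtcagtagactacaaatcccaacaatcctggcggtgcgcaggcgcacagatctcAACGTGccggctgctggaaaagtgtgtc
The Per1 window (chr11:69098699-69098948, plus strand) holds an E-box from -166 to -161 and a D-box from -24 to -17, counted from the start. The other Per1 window held none of the elements searched. The Ciart window (chr3:95882229-95882478, minus strand) has 3 E-boxes, the nearest from -44 to -39. The Per3 window (chr4:151044666-151044915, minus strand) has D-boxes that begin at -205 and -158, and the Nr1d1 window (chr11:98775378-98775627, minus strand) has CACGTT from -28 to -23. Bhlhe41 also had an E-box, beginning at -153. The windows of Dbp and Nr1d2, which moved with Ciart, Per3 and Nr1d1, and those of Arntl and Npas2 held none of the elements searched. Over all 32851 windows, 6.02% held the E-box, 3.85% held CACGTT and 1.61% held a D-box. Among the 11 windows of the clock genes these counts were 3, 1 and 2. The ROR element (TAGGTCA or AAGGTCA), present in 6.18% of all windows, and the cAMP response element TGACGTCA, present in 1.55%, were found in none of the 11. A match is a run of letters and not a measured binding site.

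In culture, the lines differed in Bhlhe41, Ciart and Arntl. Bhlhe41 (Dec2), a repressor that competes for E-boxes, was 9.75, 9.89 and 10.13 in Py117 cultures and 5.65, 5.62 and 6.07 in Py8119 cultures. The groups are far apart, and the difference of -4.14 ± 0.16 (SE, n = 3 and 3) corresponds to a signal 17.7-fold lower in Py8119 (limma, adjusted p = 5.78e-06). Ciart (Chrono), a repressor of the Arntl and Clock pair, was 6.03, 6.26 and 5.79 in Py117 cultures and 7.36, 7.02 and 7.13 in Py8119 cultures, 2.21-fold higher in Py8119 (1.14 ± 0.15, adjusted p = 0.00148). Arntl was 8.10, 8.03 and 7.93 against 8.57, 8.42 and 8.55, 1.41-fold higher in Py8119 (0.49 ± 0.10, adjusted p = 0.00828). For these 3 genes the arrays of the lines did not overlap.

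The other 6 genes did not pass the test in culture. Per1 was 8.51 to 8.72 in Py117 cultures and 8.37 to 8.60 in Py8119 cultures, a difference of -0.11 with a 95% interval from -0.37 to 0.15. For Nr1d1 the interval was wider, -0.76 to 0.55, because 1 Py117 culture read 8.37 and the other two 9.40 and 9.41. Npas2, the partner of Arntl that can stand in for Clock, differed by -0.70 ± 0.23 (adjusted p = 0.0605). It passed when Py8119 culture 1 (-0.88, adjusted p = 0.0308) or Py8119 culture 2 (-0.42, adjusted p = 0.0342) was left out, and its mean of 4.64 in Py8119 cultures lies below background. In all, 2 of the 9 clock genes were higher and 1 was lower in Py8119 cultures, against 14.5% of all genes called higher and 12.3% called lower. Of all called genes, 54.0% were thus higher in Py8119, and 70.4% with arrays centred on their medians.

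**Figure D1:**
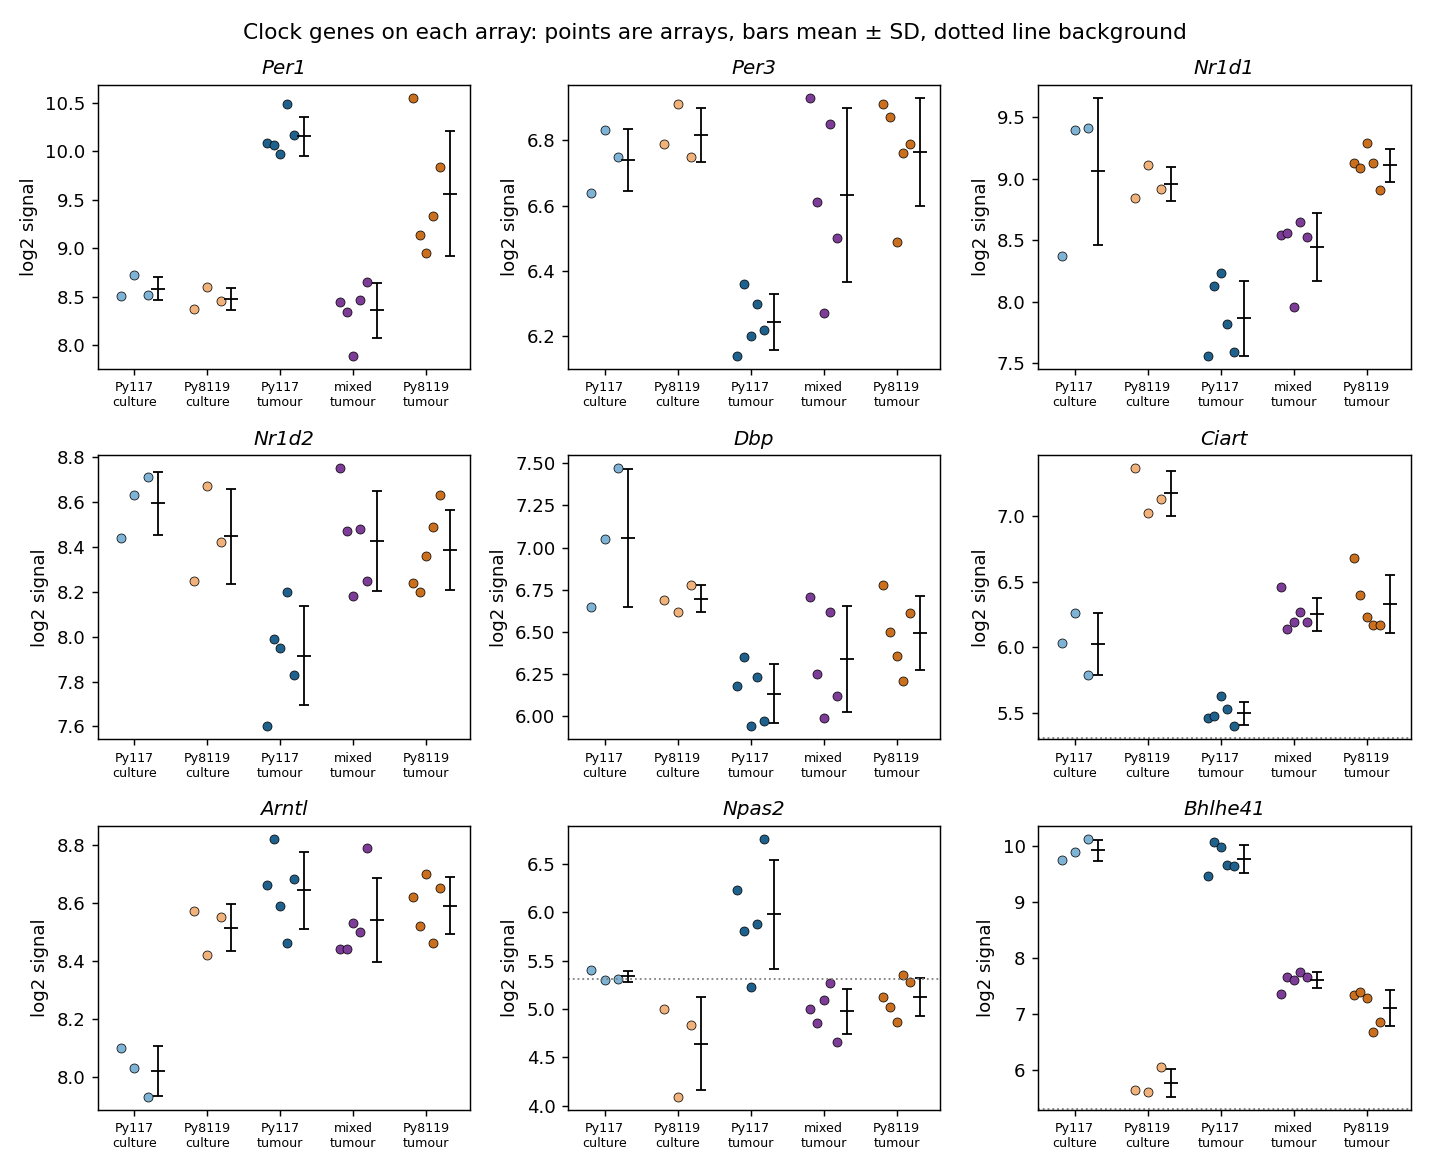
Log2 signal of each of the 9 measured clock genes on every array, 1 panel per gene, with the 5 groups along the horizontal axis, points for arrays, bars for group means and a dotted line at the background level of 5.31 where it falls within the panel. Per1 lies higher in both kinds of single-line tumour than in culture or mixed tumours, and Bhlhe41 is highest in Py117 cultures and tumours.

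In Py117, growth as a tumour went with higher Per1 and Arntl and lower Nr1d1, Dbp, Nr1d2, Ciart and Per3. Per1, a light and hormone responsive member of the period family, was 8.51, 8.72 and 8.52 in culture and 10.08, 10.06, 9.97, 10.49 and 10.17 in tumours. It was 2.97-fold higher in tumours (1.57 ± 0.13, n = 5 and 3, adjusted p = 1.07e-05), with every tumour above every culture. These tumour values also entered the choice of Per1, so the test is not independent of that choice. Arntl, the positive arm of the loop, was 8.66, 8.82, 8.59, 8.46 and 8.68 in tumours and 7.93 to 8.10 in culture. It rose 1.54-fold (0.62 ± 0.11, adjusted p = 0.00161).

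Nr1d1, Dbp, Nr1d2, Ciart and Per3 ran the other way. Nr1d1 was 8.37, 9.40 and 9.41 in culture and 7.56, 8.13, 8.23, 7.82 and 7.59 in Py117 tumours, a change of -1.20 ± 0.25 (adjusted p = 0.00414). Dbp, a D-box activator and a direct output of the loop, was 6.65, 7.05 and 7.47 in culture and 6.18, 6.35, 5.94, 6.23 and 5.97 in tumours. It fell 1.89-fold (-0.92 ± 0.18, adjusted p = 0.00247). Every tumour read below every culture for both genes.
Nr1d2, the paralogue of Nr1d1, changed by -0.68 ± 0.14 (adjusted p = 0.00387), Ciart by -0.53 ± 0.12 (adjusted p = 0.00792) and Per3 by -0.49 ± 0.10 (adjusted p = 0.00402). Their Py117 tumours ranged from 7.60 to 8.20, 5.40 to 5.63 and 6.14 to 6.36, and their cultures from 8.44 to 8.71, 5.79 to 6.26 and 6.64 to 6.83. No array of one group reached the range of the other. Bhlhe41 stayed high, 9.46 to 10.07 in tumours (-0.16 ± 0.16, 95% interval -0.51 to 0.19), and Npas2 read 5.23 to 6.76 in tumours against 5.30 to 5.40 in culture (0.64 ± 0.27, 95% interval 0.04 to 1.24), which did not pass the adjusted threshold. The Py117 culture mean of Npas2, 5.34, lies at background.

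So 2 of the 9 genes were higher and 5 lower in Py117 tumours than in Py117 cultures, where 12.4% of all genes were called higher and 18.3% lower. Higher genes made up 40.5% of all calls, and 22.6% after centring of arrays on their medians. The median difference over the 9 genes was -0.49, against -0.09 over all genes. Tumour RNA includes host cells that the cultures lack: 8 of 8 endothelial and 7 of 7 fibroblast markers rose in Py117 tumours, and their part in the clock gene changes was not tested. Adipocyte markers stood out in Py117 tumours 1, 4 and 5. Without these 3 tumours, a choice made after seeing the data, 3 of the 5 lower calls held. Nr1d1 was then at -0.88 (adjusted p = 0.0664) and Ciart at -0.47 (adjusted p = 0.0732).

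**Figure D2:**
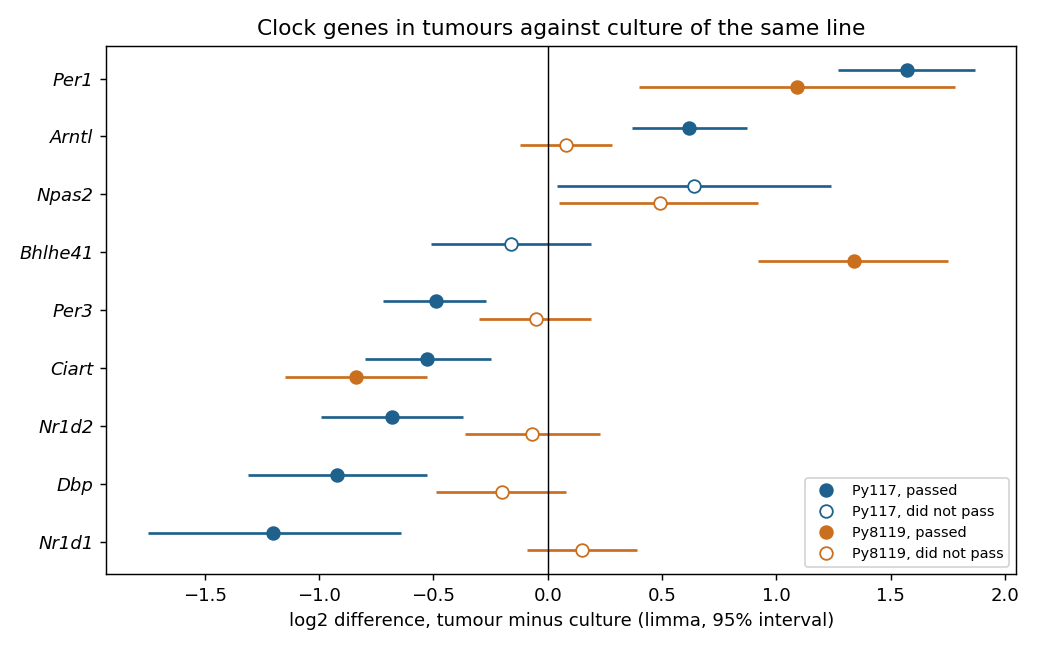
Tumour minus culture difference in log2 signal for each measured clock gene in Py117 and in Py8119, with bars for the 95% interval from limma (5 tumours and 3 cultures per line). Per1 lies above 0 in both lines, while Nr1d1, Nr1d2, Dbp and Per3 lie below 0 in Py117 and have intervals that include 0 in Py8119.

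In Py8119, Per1 and Bhlhe41 rose and Ciart fell in tumours, and the other 6 genes did not pass the test. Per1 was 8.37, 8.60 and 8.46 in culture and 10.55, 9.14, 8.95, 9.33 and 9.84 in tumours, 2.12-fold higher (1.09 ± 0.31, n = 5 and 3, adjusted p = 0.0189). The tumours were scattered over a wider range than in Py117, with an SD of 0.64 against 0.20. The call was lost when Py8119 culture 1 or 3 was left out (adjusted p = 0.0561 and 0.0505) and with a trended, robust prior (adjusted p = 0.0529). The Per1 test in this line also uses tumour values that entered the choice of the gene. Bhlhe41 was 5.65, 5.62 and 6.07 in culture and 7.34, 7.40, 7.29, 6.69 and 6.86 in tumours, 2.52-fold higher (1.34 ± 0.18, adjusted p = 0.000276). Ciart was 7.36, 7.02 and 7.13 in culture and 6.68, 6.40, 6.23, 6.17 and 6.17 in tumours, 1.79-fold lower (-0.84 ± 0.14, adjusted p = 0.000816). For all 3 genes tumours and cultures did not overlap.

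Nr1d1 read 8.84 to 9.11 in Py8119 cultures and 8.91 to 9.29 in Py8119 tumours (0.15, 95% interval -0.09 to 0.39). Arntl read 8.42 to 8.57 and 8.46 to 8.70 (0.08, 95% interval -0.12 to 0.28). The intervals for Per3 (-0.30 to 0.19), Nr1d2 (-0.36 to 0.23) and Dbp (-0.49 to 0.08) also included 0. Npas2 differed by 0.49 (95% interval 0.05 to 0.92, adjusted p = 0.0799) and passed without Py8119 culture 1 (0.67, adjusted p = 0.0303), but both group means lie below background. Counts in this line were 2 of 9 higher and 1 of 9 lower, against 16.3% and 20.9% of all genes. Centring on array medians took the share of higher genes among all calls from 43.8% to 20.7%.

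The difference between the lines in how tumours departed from culture was tested directly on the 16 arrays of single-line samples, as the Py8119 change minus the Py117 change. It passed for Bhlhe41 (1.49 ± 0.26, adjusted p = 0.000644), Nr1d1 (1.35 ± 0.29, adjusted p = 0.00459), Dbp (0.72 ± 0.23, adjusted p = 0.0463), Nr1d2 (0.61 ± 0.20, adjusted p = 0.0475) and Arntl (-0.55 ± 0.14, adjusted p = 0.0120). That is 4 of 9 genes higher and 1 of 9 lower, where 7.5% and 5.99% of all genes passed. The Dbp call was lost in 13 of the 16 fits that left out 1 array (highest adjusted p = 0.154) and the Nr1d2 call in 10 of 16 (highest adjusted p = 0.125). Per1 did not pass (-0.48 ± 0.36, 95% interval -1.24 to 0.27), nor did Ciart (-0.31, interval -0.71 to 0.08) or Per3 (0.44 ± 0.14, adjusted p = 0.0524).

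Between the single-line tumours, Nr1d1, Ciart, Per3 and Nr1d2 were higher in Py8119 and Bhlhe41 and Npas2 were higher in Py117. Nr1d1 ran from 7.56 to 8.23 in Py117 tumours and from 8.91 to 9.29 in Py8119 tumours, 2.36-fold higher in Py8119 (1.24 ± 0.15, n = 5 and 5, adjusted p = 2.10e-06). Ciart ran from 5.40 to 5.63 and from 6.17 to 6.68, 1.78-fold higher (0.83 ± 0.10, adjusted p = 3.29e-06). Neither pair of ranges overlapped. Per3 was 1.43-fold higher (0.52 ± 0.12, adjusted p = 0.00151) and Nr1d2 1.38-fold higher (0.47 ± 0.13, adjusted p = 0.00606). For Nr1d2 the lowest Py8119 tumour and the highest Py117 tumour both rounded to 8.20.
Bhlhe41 was 6.29-fold lower in Py8119 tumours (-2.65 ± 0.15, adjusted p = 1.27e-10). Npas2 was 6.23, 5.81, 5.23, 5.88 and 6.76 in Py117 tumours and 5.12, 5.02, 4.86, 5.35 and 5.28 in Py8119 tumours, where the group mean is below background. The ranges overlapped, and the difference was -0.85 ± 0.21 (adjusted p = 0.00256).

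Per1 was lower in Py8119 tumours by an amount near the threshold (-0.59 ± 0.23, 95% interval -1.08 to -0.11, adjusted p = 0.0528). Py8119 tumour 1, at 10.55, was the highest of all 21 arrays. Without it the difference was -0.84 (adjusted p = 0.000965). Per1 still did not pass in 12 of 15 fits that left out 1 array, nor in 6 of 11 other alternatives. Among these 6 were the adipocyte covariate (-0.41, adjusted p = 0.431) and leaving out the 3 Py117 tumours richest in adipocyte markers (-0.45, adjusted p = 0.295). In the remaining alternatives it passed. Dbp differed by 0.36 ± 0.14 (adjusted p = 0.0602), and Arntl by -0.05 with an interval from -0.24 to 0.14. The counts were 4 of 9 higher and 2 of 9 lower in Py8119 tumours, against 21% and 16.5% of all genes. With arrays centred on their medians, 68.0% of all called genes were higher in Py8119 tumours, against 56.0% on the deposited scale.
The adipocyte markers differ between these tumours too. With the adipocyte mean of each tumour as a covariate, Nr1d1 (0.81, adjusted p = 0.00357), Ciart (0.75, adjusted p = 0.00175) and Bhlhe41 (-3.11, adjusted p = 2.23e-09) still passed. Per3 (0.50, adjusted p = 0.0529), Nr1d2 (0.36, adjusted p = 0.184) and Npas2 (-0.10, adjusted p = 0.776) did not. Endothelial (8 of 8), fibroblast (7 of 7) and T cell markers (6 of 6) were also lower in Py8119 tumours, and their part in these differences was not tested.

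Mixed tumours are where Per1 was singled out, so the following values describe that choice. Per1 was 8.45, 8.34, 7.89, 8.47 and 8.65 in mixed tumours, with a mean of 8.36 ± 0.29 (SD, n = 5). The means were 10.15 ± 0.20 in Py117 tumours and 9.56 ± 0.64 in Py8119 tumours. All 5 mixed tumours read below all 10 single-line tumours, 3.47-fold below the Py117 mean and 2.30-fold below the Py8119 mean. They overlapped the cultures of both lines, which ran from 8.37 to 8.72. Without the 3 Py117 tumours richest in adipocyte markers the difference from Py117 tumours was -1.66.

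The other genes of the set measured above background did not share that position below both parents by a comparable amount. Arntl (8.54 ± 0.14) also had its lowest tumour mean in mixed tumours, but by 0.05 below Py8119 tumours, with overlapping arrays. Npas2 was below background in mixed (4.97 ± 0.23) and Py8119 tumours (5.13 ± 0.20), so these groups have no order. Nr1d2 (8.43 ± 0.22) was 0.04 above the Py8119 tumours. The remaining 5 genes lay between the parents. Nr1d1 was 8.54, 8.56, 7.96, 8.65 and 8.53, 47.0% of the way from the Py117 mean to the Py8119 mean on the log2 scale. Ciart, at 6.14 to 6.46, was 90.3% of the way, Bhlhe41, at 7.36 to 7.75, was 81.3%, Per3 was 74.5% and Dbp 57.0%.
Nr1d1 in mixed tumours lay below every Py8119 tumour, and its range overlapped that of Py117 tumours. Ciart and Bhlhe41 in mixed tumours were apart from every Py117 tumour and overlapped the Py8119 tumours. For Bhlhe41 that overlap was slight: only mixed tumour 1, at 7.36, read below the highest Py8119 tumour, at 7.40. Its mixed mean was 0.49 above the Py8119 mean. Over all genes, 19.2% were called higher and 16.9% lower in mixed than in Py117 tumours. Against Py8119 tumours 1.61% were called higher and 0.162% lower. Centring on array medians moved the share of higher genes among the calls from 53.2% to 63.2% against Py117 and from 90.9% to 79.5% against Py8119. These percentages give the setting, and the same mixed arrays enter both comparisons.

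**Figure D3:**
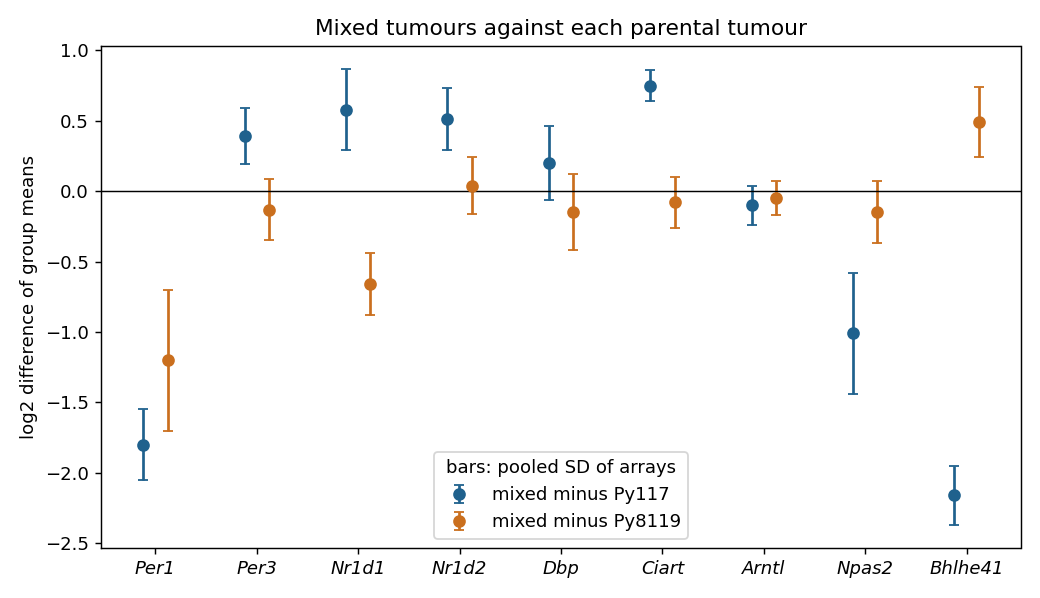
Difference in mean log2 signal of mixed tumours from Py117 tumours and from Py8119 tumours for each measured clock gene (5 tumours per group), with bars for the pooled SD of the arrays. Per1 lies below both, by 1.80 and 1.20. Bhlhe41 (-2.16 and 0.49) and Ciart (0.75 and -0.08) are farther from Py117 tumours than from Py8119 tumours.

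Per1 and the other clock genes can be set in order of their group means. For Per1 the order was Py117 tumours, Py8119 tumours, Py117 cultures, Py8119 cultures and mixed tumours. The step from Py8119 tumours to Py117 cultures was the only one between neighbours without overlapping arrays. For Nr1d1 the single-line Py8119 tumours and both cultures overlapped at the top. Mixed tumours came next without overlapping the Py8119 cultures, though the Py117 culture at 8.37 lies within their range. Py117 tumours were lowest, overlapping the mixed tumours. Nr1d2 had Py117 tumours alone apart from their neighbour, at the bottom. Ciart had Py8119 cultures apart at the top and Py117 tumours apart at the bottom. Bhlhe41 fell into 3 levels that did not overlap: Py117 cultures and tumours, then mixed and Py8119 tumours, then Py8119 cultures. For Arntl the 3 tumour groups and the Py8119 cultures overlapped from neighbour to neighbour and the Py117 cultures stood apart below. In Per3 and Dbp every group overlapped its neighbour in the order, and so did the Npas2 groups, of which 3 are below background.

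The genes outside the set give the rest of the pathway. Of 24 other clock genes listed, 20 were measured. In culture 6 were higher and 5 lower in Py8119, against 14.5% and 12.3% of all genes. Their median difference was 0.06 against -0.01 over all genes. Rorb, a receptor that activates Arntl, was 2.38 ± 0.12 higher in Py8119 (adjusted p = 1.80e-05) and Csnk1e, the kinase that marks period proteins for breakdown, 0.88 ± 0.10 higher (adjusted p = 0.000619). Id2, an inhibitor of helix-loop-helix factors, fell by 1.17 ± 0.15, Bhlhe40 (Dec1, the paralogue of Bhlhe41) by 0.92 ± 0.12 and Rora by 0.82 ± 0.12 in the same comparison (highest adjusted p = 0.00212).
Between the tumours 6 of the 20 were higher and 4 lower in Py8119 (median -0.05 against 0.01), where 21% and 16.5% of all genes were called. Rorb (3.24 ± 0.15), Fbxl21 (1.16 ± 0.15) and Arntl2 (1.16 ± 0.11), the paralogue of Arntl, were higher. Fbxl21 averaged 4.49 in Py117 tumours, below background, and 5.66 in Py8119 tumours, so the size of its difference is uncertain. Id2 (-1.86 ± 0.11), Rora (-1.47 ± 0.14) and the deubiquitinase Usp2 (-1.17 ± 0.12) were lower. Rorb was thus higher, and Rora and Id2 lower, in Py8119 both in culture and in tumours.

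From culture to tumour, Id2 and Usp2 were among those that rose in both lines, and Timeless, Clock and Cry1 among those that fell in both. Clock, the usual partner of Arntl, changed by -0.44 ± 0.13 in Py117 (adjusted p = 0.0218) and by -0.41 ± 0.10 in Py8119 (adjusted p = 0.00761). Usp2 changed by 1.32 ± 0.15 and 0.87 ± 0.12, and Id2 by 1.38 ± 0.17 and 0.69 ± 0.11. Timeless, which also acts at replication forks, changed by -0.73 ± 0.12 and -1.16 ± 0.10. In Py117, 4 of the 20 were higher, among them Nampt (0.91 ± 0.23), and 8 lower, among them Tipin (-1.34 ± 0.23) and the cell cycle kinase Wee1 (-0.85 ± 0.18). In Py8119, 4 were higher, among them Arntl2 (0.62 ± 0.09), and 9 lower, among them the repressors Cry1 (-0.92 ± 0.08) and Cry2 (-0.57 ± 0.13). Of all genes, 12.4% were called higher and 18.3% lower in Py117, and 16.3% and 20.9% in Py8119. The medians of the 20 were -0.32 in Py117 and -0.09 in Py8119, against -0.09 and -0.05 over all genes.
Cell cycle markers moved with these genes: their mean per array was 10.08 to 10.53 in the cultures and 8.69 to 9.70 in the tumours, and its part in the changes of Timeless, Tipin and Wee1 was not tested. The line difference passed for 7 of the 20, 4 upward and 3 downward, against 7.5% and 5.99% of all genes. Arntl2 (1.09 ± 0.18), Tipin (0.93 ± 0.27) and Rorb (0.87 ± 0.24) led those on the Py8119 side. Nampt (-0.91 ± 0.26), Id2 (-0.69 ± 0.21) and Rora (-0.65 ± 0.21) were the 3 on the Py117 side.

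Because Per1 is also a target of glucocorticoids and of cAMP, a list of each kind was read beside it. Of the 12, 7 rose and 0 fell in Py117 tumours relative to culture, where 12.4% of all genes were called higher and 18.3% lower. Their median was 0.80 against -0.09 over all genes. Mt2, a metallothionein, rose by 3.04 ± 0.24, Fkbp5, a chaperone of the receptor, by 1.33 ± 0.19, the transcription factor Zbtb16 by 1.31 ± 0.21 and Tsc22d3 (Gilz) by 1.24 ± 0.14 (highest adjusted p = 0.000660). In Py8119, 4 rose and 1 fell, against 16.3% and 20.9% of all genes, with a median of 0.05 against -0.05. Tsc22d3 rose by 1.15 ± 0.15, Fkbp5 by 0.63 ± 0.13 and Sgk1 by 0.53 ± 0.13, and Klf9 changed by -0.58 ± 0.19. Py8119 tumours had 7 of the 12 lower and 1 higher than Py117 tumours (median -0.45), against 16.5% and 21% of all genes. Zbtb16 was at -1.55 ± 0.14 and Klf9 at -1.32 ± 0.18. The line difference in the change from culture to tumour passed downward for 5 and upward for 1 (median -0.66 against 0.03). Over all genes, 5.99% passed downward and 7.5% upward. Mt2 (-3.27 ± 0.32) and Mt1 (-1.44 ± 0.27) were among the 5. These genes already differed in culture, where 2 of the 12, Mt2 and Mt1, were higher in Py8119 and 1 was lower. Mt2 averaged 7.24 in Py117 cultures and 10.46 in Py8119 cultures, and Mt1 9.24 and 10.64. Their tumour means were 10.28 and 10.23 for Mt2 and 10.28 and 10.24 for Mt1, and neither passed between tumours. Zbtb16, Klf9 and Klf15, the others of the 5, did not pass in culture and were lower in Py8119 tumours.
In mixed tumours the 12 had a median difference of -0.72 from Py117 tumours and -0.23 from Py8119 tumours. Over all genes both medians were -0.03, and these values are a description with no test. The mean of the 12 per array was 8.36 to 8.79 in Py117 tumours, 7.71 to 7.96 in mixed tumours and 7.87 to 8.20 in Py8119 tumours, against 7.61 to 7.70 and 7.84 to 7.92 in the Py117 and Py8119 cultures. Mixed and Py8119 tumours overlap in this mean, whereas in Per1 they do not. Whether glucocorticoid exposure has a part in the level of Per1 was not tested.

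The 16 immediate early and cAMP genes followed another order. In culture 11 were lower and 0 higher in Py8119 (median -0.57), against 12.3% and 14.5% of all genes. Among the lower were Fos (-2.59 ± 0.31), Egr1 (-1.37 ± 0.22) and Ier3 (-1.10 ± 0.10), while Per1 did not pass. Fos averaged 5.07 in Py8119 cultures, below background, so its difference has no exact size. In Py117 tumours, where Per1 rose, 9 fell and 1 rose relative to culture (median -0.68), against 18.3% and 12.4% of all genes. In Py8119 tumours 5 rose and 3 fell relative to culture (median 0.09), against 16.3% and 20.9% of all genes. Between single-line tumours 4 were higher and 6 lower in Py8119 (median 0.05), against 21% and 16.5% of all genes. In mixed tumours, described with no test, their median difference was -0.04 from Py117 tumours and 0.09 from Py8119 tumours. Over all genes both medians were -0.03.

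**Figure D4:**
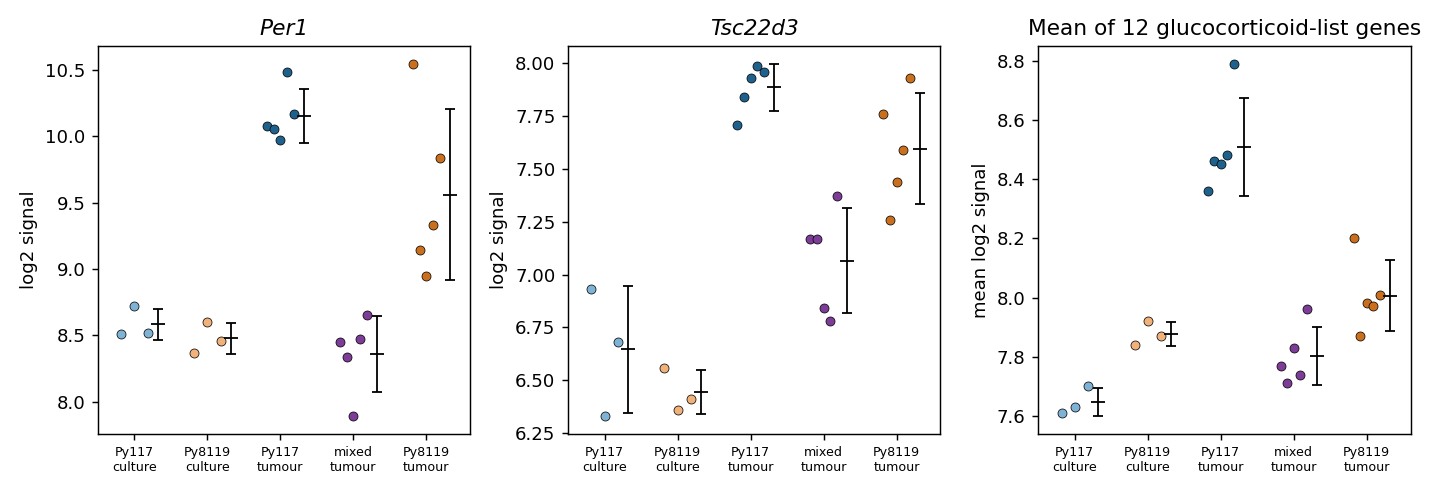
Log2 signal of Per1, log2 signal of the glucocorticoid target Tsc22d3 and mean log2 signal of the 12 glucocorticoid targets on each array. Each has its own panel, with the groups along the horizontal axis, points for arrays and bars for the mean and SD. In Per1 the mixed tumours (7.89 to 8.65) overlap the cultures and lie below every single-line tumour. In Tsc22d3 (6.78 to 7.37) they overlap the Py8119 tumours. They lie above the Py8119 cultures (6.36 to 6.56) and overlap the Py117 cultures only through the array at 6.93.

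The genes whose signal followed Per1 most closely over the 15 tumour arrays were ranked by Pearson correlation among 10452 genes. The points share the group differences, so these values describe the pattern. The 5 nearest were Mknk2 (r = 0.92), Tsc22d3 (0.92), Ythdc1 (0.90), Ywhab (0.89) and Depp1 (0.89). Tsc22d3 was 7.71, 7.84, 7.93, 7.99 and 7.96 in Py117 tumours, 7.17, 7.17, 6.84, 6.78 and 7.37 in mixed tumours and 7.76, 7.26, 7.44, 7.59 and 7.93 in Py8119 tumours. Its group means, 7.89, 7.07 and 7.59, fall in the same order as those of Per1. Depp1 had means of 7.30, 5.91 and 6.54. The other three followed the same order over smaller ranges, Mknk2 with 8.83, 8.42 and 8.61, Ythdc1 with 9.56, 9.25 and 9.40, and Ywhab with 10.14, 9.96 and 10.06. None of the other measured genes of the set was near this pattern. With group differences left in, their r with Per1 over the same arrays ran from -0.50 (Nr1d2 and Ciart) to 0.63 (Npas2). The r of the clock genes outside the set is not given here.

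Co-variation within groups addresses whether tumours high in one clock gene were high in another. Values were centred on their group mean over the 15 tumours, and 7 pairs drawn from the textbook loop were tested by permutation within groups. No pair passed after adjustment over the 7. Nr1d1 and its target Npas2 had r = -0.64 (Spearman rho = -0.57, permutation p = 0.0339, adjusted p = 0.132), and r = -0.61 without the 2 tumours farthest from the median of Nr1d1. With the adipocyte mean removed, r was -0.31. Ciart and Dbp had r = 0.56 (rho = 0.49, permutation p = 0.0377, adjusted p = 0.132), which dropped to 0.23 without the 2 farthest tumours, so it rests on them. Nr1d1 and Arntl, the best known repressor and target, had r = 0.07, Dbp and Arntl -0.07, Arntl and Npas2 -0.11, Dbp and Nr1d1 0.27 and Per1 and Nr1d1 0.04. As a description, the centred values of Per3 and Dbp had r = 0.82, the largest of the member pairs named here. Centred Per1 had r = 0.54 with Dbp, 0.51 with Per3 and 0.50 with Ciart, also with no test. With the remaining measured members its centred r ran from -0.04 (Bhlhe41) to 0.19 (Nr1d2).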

How the data were processed

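RNA of 21 samples was measured on Affymetrix whole-transcript mouse arrays. The deposited values are log2 signals made by the authors with RMA, and limma is also named, both per the submitters' processing notes, without versions. Background correction and normalization beyond that name, and any array batch, are not given in the sources used here. Of 41345 probe sets, 23521 had 1 gene symbol in the platform annotation, 1814 several and 16010 none. Where a gene had several probe sets (1082 genes), the brightest by its mean signal was kept, leaving 22180 genes.

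Tests used lmFit and eBayes of limma 3.58.1, run under R 4.3.3, and Benjamini-Hochberg adjustment over all genes, called at an adjusted p of 0.05. The cultures, the 15 tumours, each line's own arrays and the 16 single-line arrays were fitted separately. Pairs of genes were tested with 100000 two-sided permutations within groups (Python 3.11.15). The number of arrays limits precision. Code was tested on simulated data. The members and gene lists were chosen with earlier results of these data known. All members are named, and of each other list those with the largest called differences, up to 3 per direction for clock genes. Alternatives were other normalizations, filters, priors, array weights, a replicate block, leaving out each array and an adipocyte covariate. Promoter sequences are from RefSeq. The main fits did not pair samples by replicate number. Of 36 same-numbered pairs of arrays, 5 had deviations correlated above 0.1, over a range of -0.23 to 0.26. Same-numbered Py117 and mixed tumours had 0.16, 0.09, 0.26, 0.18 and -0.05. Differently numbered pairs were not compared, so these values cannot decide whether the numbers pair samples.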

Additional observations from a re-analysis of the deposited data

Results flagged for a closer look

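The change from culture to tumour differed between the lines, by the test of the difference itself, for 5 clock genes: Bhlhe41 (1.49, Py8119 minus Py117, log2), Nr1d1 (1.35), Dbp (0.72), Nr1d2 (0.61) and Arntl (-0.55). Among 27 groups of 5 tumours examined, 1 array stood apart from the other 4 of its group in 2 cases, where chance sets apart about 1 in 20 groups. Nr1d1 in mixed tumour 3 was 7.96, below the other mixed tumours at 8.53 to 8.65. Arntl in mixed tumour 5 was 8.79, above the others at 8.44 to 8.53.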

How the results depend on the processing

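Over 886 alternatives for tested values of single clock genes, 815 left the call as it was, 42 ended it, 29 made one and none reversed a called direction. These leave out 27 fits without the 3 Py117 tumours of highest adipocyte mean, of which 5 ended a call (Npas2 between tumours, Nr1d1 and Ciart in Py117, and the Nr1d2 and Dbp line differences). In counts of called clock genes, the lower count in culture (1) became 2 with a trended, robust prior and ranged from 1 to 2 with 1 array left out (2 without Py8119 culture 1 or 2). The tumour difference (4 higher, 2 lower) became 2 and 1 with the adipocyte covariate, and its lower count became 1 without those 3 tumours (left out after seeing the data), which also took the lower count of Py117 tumours against culture from 5 to 3. With 1 array left out these counts ranged from 4 to 5, from 2 to 3 and stayed at 5. In Py8119 tumours against culture the higher count (2) was 1 with the trended, robust prior, the replicate block or a threshold of 0.01, and 1 to 2 with 1 array left out (1 without Py8119 culture 3). The lower count (1) was 2 with quantile normalization and with arrays centred on their median. The higher count of the line difference (4) was 2 with centring, at 0.01 and without the 3 tumours, and 2 to 4 with 1 array left out; its lower count (1) was 0 at 0.01. Centring moved the median over all genes from -0.09 to -0.25 in Py117 and from -0.05 to -0.26 in Py8119, from -0.01 to 0.14 in culture and from 0.01 to 0.11 between tumours. With the replicate number as a block, the higher and lower counts were 2 and 1 in culture, 5 and 3 between tumours, 2 and 4 in Py117, 1 and 1 in Py8119 (where Per1 had an adjusted p of 0.0964), and 3 and 1 for the line difference. Causes were not tested. Npas2, below background in 3 groups and at it in Py117 cultures, and arrays of 3 per culture limit what can be resolved.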
